A study of Arabidopsis thaliana with 42 samples.

Results

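Unheated seedlings of an Arabidopsis thaliana double mutant in nonsense-mediated mRNA decay were compared with unheated wild-type seedlings of the same background, Columbia-0. The comparison uses 6 of the 42 libraries of the series, the 3 titled upf at time 0 and the 3 titled WT at time 0. The labels give the mutant as upf3-1upf1-5, a combination of 1 allele each of UPF3 and UPF1, and shorten it to upf. All plants were whole seedlings, 10 days old, grown on agar medium at 23 °C in a 16 h day and 18 °C in an 8 h night, and taken 3 h after the start of the light, before any heat. Each library was a separate biological repeat. The other 36 libraries were heated at 44 °C for 15, 30, 45 or 90 min: 12 of upf, 12 of wild type and 12 of wild type given cycloheximide (CHX), which blocks translation, at 10 μg/L. They serve here only to follow the members of the unheated comparison.

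Nonsense-mediated decay, NMD, degrades transcripts on which a ribosome stops far from the 3′ end. UPF1 is the RNA helicase at its core, and UPF3 links it to the protein complexes that splicing leaves on exon junctions. A stop codon well before the last exon junction, a translated upstream reading frame or a long 3′ untranslated region can each mark a transcript for decay. The pathway acts on faulty splice products and on a set of normal mRNAs, several of which encode parts of the pathway itself. In Arabidopsis, plants that lack it are known for activated defence against pathogens.

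The values are the authors' normalized counts, whole numbers per transcript, averaged here over 2 sequencing lanes and summed per gene locus. Their sum per unheated library ran from about 14700700 to 16583700. Of the 2 targeted genes, UPF1 (AT5G47010, named LBA1 in the reference, chromosome 5, 19071824 to 19079453 on the plus strand) had 806.5, 614 and 487 normalized counts in upf replicates 1, 2 and 3 and 2310.5, 2086.5 and 2052.5 in wild type. UPF3 (AT1G33980, chromosome 1, 12351566 to 12355173 on the plus strand) had 198, 163.5 and 147.5 in upf and 652.5, 642 and 669 in wild type. Every upf library was below every wild-type library for both genes, as the labels require, and neither mRNA was at 0. In the limma fit described next, UPF1 fell by 1.78 on the log2 scale (SE 0.20, adjusted p = 2.9e-08). UPF3 fell by 1.95 (SE 0.14, adjusted p = 2.9e-12).

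A linear model (limma, on log2 of the value plus 1, n = 3 libraries per group, all 42 libraries sharing 1 estimate of the spread per locus) tested 20747 loci that reached 10 in at least 3 libraries. A locus is said to have risen or fallen when its adjusted p was below 0.05 and its change was at least 2-fold. In upf, 1243 loci rose, which is 5.99% of those tested, and 307 fell, which is 1.48%. The higher loci made up 80.2% of all calls. Their median change was 2.90-fold, 330 of them rose at least 4-fold and 28 at least 16-fold. Among the lower loci 30 fell at least 4-fold and 0 at least 16-fold. The groups did not overlap at 1508 of the 1550 loci called, but the call itself favours such separation, so this is no added support. The median log2 change over all loci was -0.03.

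Gene lists drawn up from knowledge of the tissue and the pathway moved in different directions. They were chosen with earlier results of these data known, so their counts and medians are a description and no independent evidence. Over all loci tested, 5.99% rose and 1.48% fell. The salicylic acid list held the most risen members, the phosphate list held the most that fell, and ribosomal protein genes, reference genes and root markers held none of either kind. The medians ran from -1.58 for the phosphate list to 2.73 for the seed maturation list, on the log2 scale. Whole seedlings mix organs, and in such bulk RNA fewer cells of a type and less RNA per cell cannot be told apart.

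**Figure D1:**
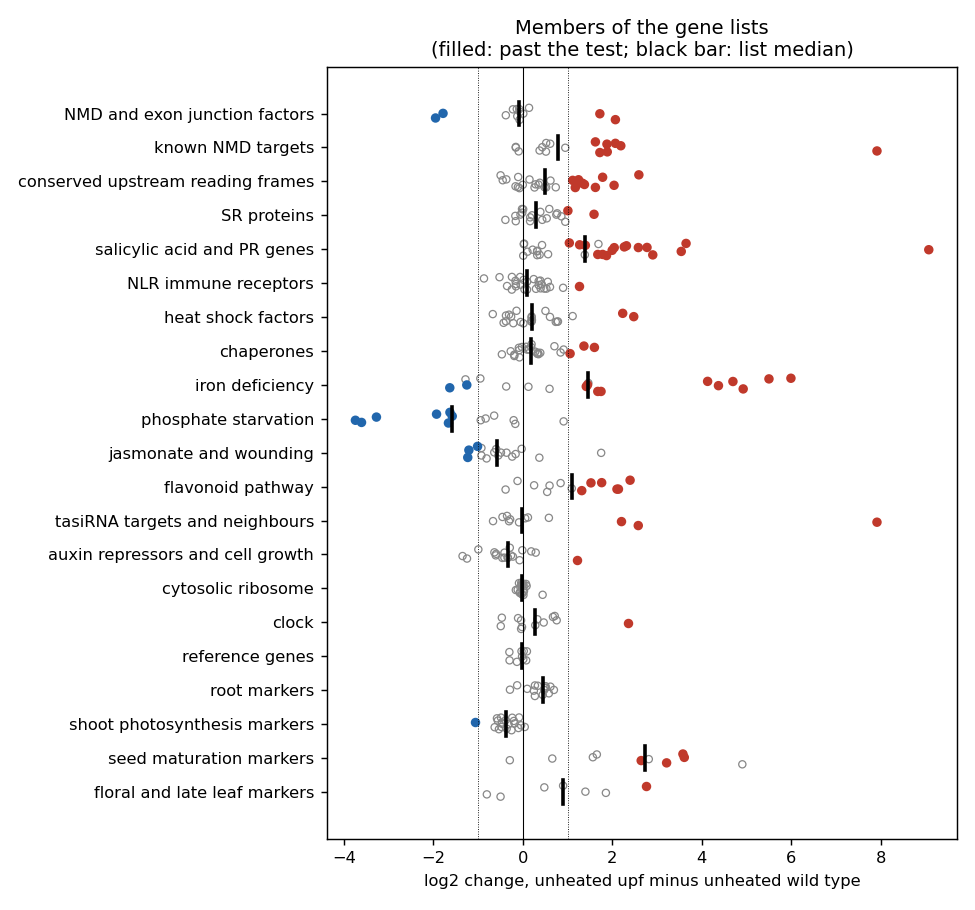
Log2 change between unheated upf and unheated wild type (x axis) for each tested member of the 21 gene lists (y axis), with 3 libraries per group. Filled points passed the test, red for higher and blue for lower, open points did not, black bars are list medians and dotted lines mark 2-fold. The salicylic acid points all lie above 0, and the phosphate list has its median at -1.58.

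Markers of organs were measured because seedlings of 2 genotypes can differ in their make-up. Of 20 photosynthesis genes of the shoot, 19 were lower in upf but 1 passed the test. Their summed level was 1336800 to 1676500 in upf and 1762100 to 1834300 in wild type. The one that fell, PSAF, a subunit of photosystem I, lost its call with libraries scaled to equal totals (log2 change -0.99) and without wild-type replicate 3 (-0.999). Of 15 root markers, 13 were higher and 0 passed the test (summed level 29958 to 33825 in upf, 32646 to 44566 in wild type). The part of organ make-up in the results that follow was not tested.

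Transcripts already known as targets of NMD in Arabidopsis formed the first group. Of 16 such loci, 7 rose and 0 fell, with a median log2 change of 0.78. The list was assembled from knowledge of earlier work, so its direction is no independent evidence. ERF1-1 encodes a release factor that recognises stop codons. It had 2552.5, 2802.5 and 3018 normalized counts in upf and 646.5, 660.5 and 681.5 in wild type, a log2 change of 2.07 (SE 0.17, adjusted p = 5.4e-11). The lowest mutant library lay more than 2-fold above the highest wild-type library. TFIIIA, the transcription factor of 5S ribosomal RNA genes, rose by 1.88 (SE 0.13, adjusted p = 2.1e-12). AT5G45430, annotated as a protein kinase, had 18603, 17878 and 16568 in upf against 3868.5, 3642.5 and 4112.5, and AT1G36730, annotated as a translation initiation factor, rose by 1.89 (SE 0.13). The 9 members that did not pass lay between -0.16 (SR30) and 0.95 (SR34a), among them the splicing regulators PTB1 (0.61, adjusted p = 1.1e-05, under the fold threshold) and PTB2 (0.37) and the clock-related RNA-binding proteins GRP7 (-0.16) and CCR1 (-0.09).

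Among factors of NMD and of the exon junction complex, ERF1-1 rose, UPF1 and UPF3 fell, and 9 did not pass the test. ERF1-2 and ERF1-3, paralogs of ERF1-1, changed by -0.08 and -0.22, and the exon junction proteins MAGO, Y14 and EIF4A-III by -0.06, 0.01 and -0.07.

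MRD1 (AT1G53480) showed one of the greatest differences. It had 594.5, 363.5 and 292 normalized counts in upf and 1, 0.5 and 0.5 in wild type, so the mutant libraries stood far above a wild-type level close to 0. The fitted log2 change of 7.92 (SE 0.86, adjusted p = 2.2e-08) depends on the value of 1 added before taking logs. Its locus, chromosome 1 from 19963047 to 19964712 on the minus strand, shares 1446 bases with HEI10 on the plus strand. HEI10, which acts in meiotic crossing over, had 112, 88.5 and 76 in upf and 18.5, 21 and 17.5 in wild type, a change of 2.21 (SE 0.26, adjusted p = 1.1e-07). The sources used here do not say whether counting used strand, so reads of the 2 genes may not be fully separated. Risen loci lay next to another risen locus on the chromosome in 27.2% of cases, against 11.7% of all loci.

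Genes with a conserved upstream reading frame, whose encoded peptide can stall ribosomes, formed the second group. Of 27 tested, 10 rose and 0 fell, with a median log2 change of 0.49. XPL1, an enzyme of phosphocholine synthesis, had 2462, 2601.5 and 2652 normalized counts in upf and 387.5, 461 and 429.5 in wild type, a change of 2.59 (SE 0.32, adjusted p = 2.6e-07). A related methyltransferase, AT1G73600, rose by 1.33 (SE 0.37, adjusted p = 0.0084), while the third member, PMEAMT, was at -0.08. In polyamine metabolism, AT5G15950, an adenosylmethionine decarboxylase, had 4350.5, 3536.5 and 4646.5 in upf against 1398, 1132.5 and 648. Its change was 2.04 (SE 0.17), whereas the family member SAMDC was at 0.26 and AT3G25570 at -0.16, and neither passed the test. PAO4, a polyamine oxidase, rose by 1.17.

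SAC51 encodes a bHLH transcription factor that acts with thermospermine in stem growth. It had 2707.5, 2948 and 2809.5 in upf and 907.5, 876 and 964.5 in wild type, a log2 change of 1.62 (SE 0.19, adjusted p = 6.9e-08). The related bHLH loci AT5G09460 and AT1G29950 rose by 1.24 and 1.25. EMB1444, another bHLH gene, rose by 1.78 and its relative CPUORF7 by 1.11. By contrast, the bZIP genes with a sucrose-responsive upstream frame did not pass the test: bZIP1, bZIP2, BZIP53, bZIP44 and GBF6 lay between -0.50 and 0.38. The groups of 3 libraries were separate in 10 of the 10 risen members, as they were in 1216 of all 1243 risen loci. The call itself favours such separation.

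Features of the annotated transcripts were set beside these calls as a description. Each locus was scored by its most abundant transcript over the unheated libraries of both genotypes. In a risen locus this can be a form that accumulated in upf, so the choice itself may raise the percentages of risen loci. How much of the differences below comes from that choice was not tested. An upstream reading frame of at least 35 codons, or one that overlaps the start, was present in 31.1% of the 1243 risen loci, 21.6% of the fallen loci with an annotation and 21.0% of all annotated loci tested. A stop codon more than 50 bases before the last exon junction of the annotated coding sequence was present in 4.91%, 2.02% and 2.36% in the same order. The 3′ untranslated region had a median length of 208 bases in risen loci and 256 bases in all. A region of at least 350 bases was present in 15.7% of risen loci and 23.2% of all loci.

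The level of a locus can hide a shift between its transcripts. Each transcript was therefore tested against the others of its locus (limma diffSplice, 22958 transcripts of 8205 loci). This test compares log2 changes of transcripts, whatever their level, so its p-value is not a test of the share itself. The share is the value of a transcript over the sum of its locus in the same library. A transcript is said to have gained or lost share when its adjusted p was below 0.05 and its mean share moved by at least 10 percentage points. In upf, 177 transcripts of 176 loci gained share, which is 0.771% of those tested, and 122 lost share, which is 0.531%. Those that gained went from a median share of 12.1% in wild type to 40.5% in upf, a median change of 22.9 percentage points. Their own level rose by a median of 1.98 on the log2 scale, while the rest of the locus moved by a median of -0.14 and was lower in 119 of 177. The locus as a whole had risen in 34 of the 177 and had no call in 142.

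These counts depended on single libraries. Without upf replicate 1, 98 transcripts gained and 66 lost share; without wild-type replicate 1 the counts were 113 and 79, and without wild-type replicate 2, 81 lost share. A second test, limma on the logit of the share, called 190 and 160, and 120 gains and 87 losses passed both tests. The fit with the 6 unheated libraries alone called 412 and 306. Of 42 called transcripts from the largest shifts and the gene lists, 19 kept the call whichever of the 6 libraries was left out.

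An early stop, that is a stop codon more than 50 bases before the last exon junction, was also looked for in the frame that begins at the start codon of the longest annotated protein of the locus. This definition was added after the data had been seen, since many such transcripts are annotated with a later start or no protein. By it, 78 of the 177 transcripts that gained share (44.1%) and 11 of the 122 that lost share (9.02%) had an early stop, against 14.8% of all transcripts tested. Among those that passed both tests the shares were 50.8% and 6.90%. By the annotated coding sequence they were 13.0%, 9.84% and 10.3% for gained, lost and all transcripts. Read the other way, 2.29% of transcripts with an early stop gained share and 0.324% lost it, whereas of those with none 0.506% gained and 0.568% lost. An upstream reading frame of the kind above was found in 58.8% of gained, 16.4% of lost and 30.4% of all transcripts, and a long 3′ untranslated region in 28.2%, 32.0% and 32.0%.

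**Figure D2:**
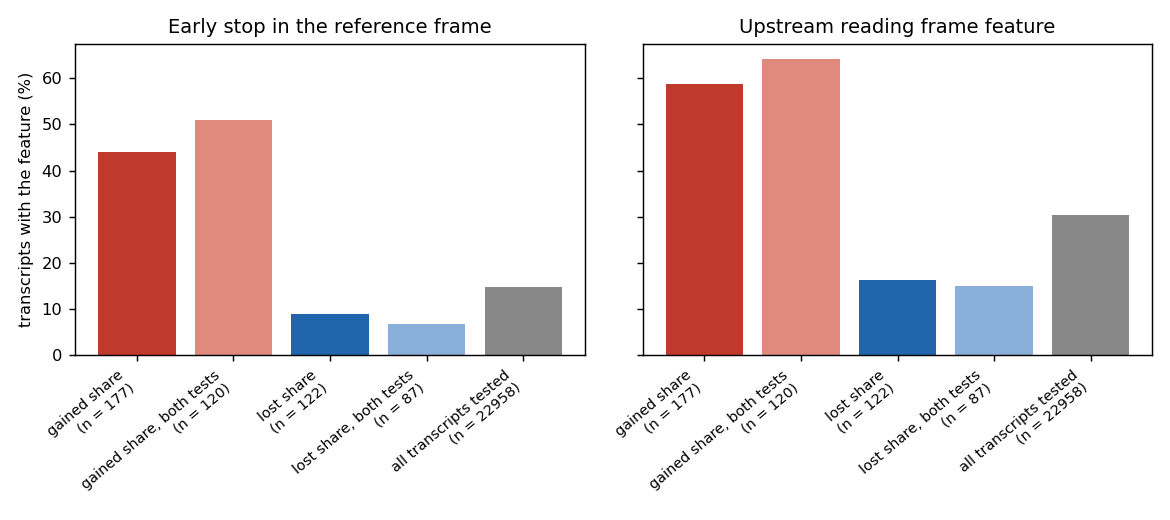
Percent of transcripts (y axis) with an early stop in the frame of the reference start codon (left) and with an upstream reading frame feature (right), for transcripts that gained or lost share in unheated upf by diffSplice, by both tests, and for all 22958 tested. The early stop bar stands at 44.1% for gained and at 9.02% for lost transcripts, with 14.8% for all.

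The sequence around the early stop is shown for 9 transcripts whose higher share in upf is described next. Each window was read from the RefSeq TAIR10.1 genome along the spliced transcript, 5′ to 3′, and has 15 bases before the stop codon, the stop codon in capitals and 12 bases after it. The first, AT5G63440.3, reads this stop after 53 codons where the longest protein of the locus has 232 residues, at chr5:25407073-25407075 on the plus strand.
AT5G63440.3: caggtcgaatgtactTGAcaagaagacgca
AT4G24810.1: tacaaggtttctcttTGAttgatgggtatt
AT2G21370.2 (XK-1): ctcatccatttcgctTGAtggaacttctgc
AT5G52040.4 (RS41): tcccacacagcccatTGAtggacaatatgg
AT4G25500.3 (RS40): aaagctggatgtgttTGAtaatcttgggac
AT3G53500.1 (RS2Z32): gggtggactgtggtgTAAttggtggaaatt
AT2G45670.2: accctattcaacctgTAGtagtccggtatc
AT5G44870.2 (LAZ5): cacgagcaagcagagTAGcagaatctctaa
AT2G26150.3 (HSFA2): tatatgggtttcctaTGAgtcttcagctat
The distance from the stop codon to the last exon junction of the same transcript was 469 bases in AT5G63440.3, 1274 in AT4G24810.1, 856 in XK-1, 1213 in RS41, 1159 in RS40, 592 in RS2Z32, 659 in AT2G45670.2, 2453 in LAZ5 and 788 in HSFA2. The frame before the stop held 41 codons of 481 in AT4G24810.1, 50 of 357 in RS41 and 151 of 1170 in LAZ5.

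Among loci with a mean of at least 100 normalized counts, the largest called gain of share was that of AT5G63440.3. Gains in loci below that mean reached 86.1 percentage points. AT5G63440.3 comes from a locus annotated only by a domain of unknown function. It made up 70.9, 65.5 and 68.7% of the locus in upf and 22.0, 16.7 and 18.8% in wild type (diffSplice adjusted p = 0.0032, logit adjusted p = 0.020). Its partner AT5G63440.2, which encodes the full protein, lost share, from 67.6, 75.9 and 68.0% to 27.8, 31.6 and 30.4%. The call of AT5G63440.2 was lost in lane 1 alone, in lane 2 alone and with no filter on low values (adjusted p = 0.961, 0.915 and 0.832). The level of the partner itself changed by -0.06 on the log2 scale, and that of AT5G63440.3 by 2.96. AT4G24810.1, of a protein kinase locus, went from 10.5, 6.01 and 11.8% in wild type to 60.2, 53.0 and 49.7% in upf. XK-1, a xylulose kinase, had 74.8, 82.5 and 76.5% of its locus in AT2G21370.2 in upf and 37.0, 34.1 and 28.7% in wild type. For the last 2 the adjusted p reached 0.061 when 1 library was left out.

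Of the 12 largest gains in loci with a mean of at least 100, 39.8 to 49.2 percentage points, 5 had an early stop, 11 had an upstream reading frame feature and 11 passed the logit test too. The exception there was ABCI15, a lipid transport protein of the chloroplast (logit adjusted p = 0.11). The locus had risen in 6 of the 12. Not every large shift was of this kind. AT3G08890.2 went from 25.6, 27.0 and 36.7% to 84.7, 73.7 and 75.6% and PRIN2, AT1G10522.1, from 27.5, 35.5 and 51.3% to 94.3, 69.6 and 84.0%. In both loci the rising and the falling transcript encode a protein of the same length, 170 and 179 residues, and the partner's own level was lower, by -0.94 and -1.60. AT5G59950.2, of an RNA-binding protein, had 56.5, 66.7 and 64.7% against 19.3, 22.7 and 23.8%, but its diffSplice call was lost without any 1 of the 6 libraries (adjusted p 0.063 to 0.17, logit adjusted p in the full data 6.0e-05). The same held in part for the gains of AT2G42170.1, an actin family member, and CRK11, a receptor-like kinase, whose adjusted p reached 0.12 and 0.17.

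The 8 largest called losses of share in loci with a mean of at least 100 ran from 36.3 to 48.2 percentage points. CTF2A, annotated as an oxidoreductase, had 26.8, 29.4 and 28.4% of its locus in AT2G35660.1 in upf and 67.9, 63.7 and 67.0% in wild type (adjusted p = 0.00051). Its own level changed by -0.26 on the log2 scale and that of the rest of the locus by 2.05. AT1G26940.1, annotated as a cyclophilin-like protein, had normalized counts of 95, 88 and 94 in upf against 88, 91 and 125.5, while the other transcript of its locus, AT1G26940.2, had 120.5, 116 and 141 against 33, 23 and 9. AT4G34480.1 and AT3G20890.1 did not pass the logit test (adjusted p = 0.072 and 0.071). With 1 library left out the adjusted p of AT1G26940.1, AT4G34480.1, AT3G20890.1 and AT1G22700.2 reached 0.16, 0.21, 0.069 and 0.092.

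AT2G45670 is a known target annotated as a calcineurin B subunit-like protein, and its locus did not pass the test (log2 change 0.52). Its transcript AT2G45670.2, with the early stop, had 52.6, 57.5 and 57.1% of the locus in upf and 26.3, 24.3 and 20.2% in wild type (adjusted p = 7.5e-07). LAZ5, an immune receptor gene, did not pass the locus test either (-0.15), while LAZ5 AT5G44870.2 had 55.2, 45.1 and 41.1% against 21.4, 20.3 and 18.1% (adjusted p = 0.0023). In both genes every upf library was above every wild-type library. RVE8, a clock transcription factor, had 24.6, 28.5 and 27.8% in AT3G09600.2 against 1.83, 8.85 and 10.5%, which held in all but 1 of the left-out sets (adjusted p up to 0.060). PMEAMT, named above for its level, gained share in AT1G48600.2, from 2.03, 2.84 and 2.33% to 16.4, 20.8 and 17.9% (adjusted p = 0.0026). TFIIIA AT1G72050.1, with an early stop, had 95.3, 97.9 and 96.7% against 84.7, 83.2 and 82.1% and passed the logit test (0.0012) but not diffSplice (0.20). PTB1 AT3G01150.2, also with an early stop, had 23.64, 33.0 and 34.0% against 14.8, 16.8 and 15.5% and passed neither (0.82 and 0.33).

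SR proteins are splicing factors that bind RNA and carry a domain rich in arginine and serine, and many of their own genes are spliced into forms with an early stop. Of 20 SR loci tested, 2 rose and 0 fell, with a median of 0.30. RS40 had 1431, 1371.5 and 1397.5 normalized counts in upf and 483, 387 and 533.5 in wild type, a log2 change of 1.59 (SE 0.22, adjusted p = 1.2e-06). SR45a changed by 1.01 (SE 0.19, adjusted p = 0.00013), just past 2-fold, and dropped under it without wild-type replicate 1 (0.93) or upf replicate 3 (0.97). Among their transcripts, 28 with an early stop were tested, of which 3 gained share and 0 lost it. Of 40 with none, 4 gained and 2 lost share. The share was higher in upf in 10 of the 28 (median change -0.48 percentage points) and in 17 of the 40 (-0.40). Over all transcripts tested, 2.29% of those with an early stop and 0.506% of those with none gained share.

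RS41 and RS40 are close relatives that shifted between forms. RS41 AT5G52040.4, with its stop after 50 codons, had 35.4, 37.1 and 32.8% in upf and 5.35, 6.87 and 5.76% in wild type. Its diffSplice call (adjusted p = 0.030) was lost without any 1 of the 6 libraries (0.062 to 0.16), while the logit test gave 7.3e-07. The form of the longest annotated protein, AT5G52040.2, was at 0 or near it in the 3 upf libraries. In wild type it was at 29.6, 23.5 and 24.5% (diffSplice adjusted p = 9.0e-13). Another RS41 transcript, AT5G52040.1, did not share this loss and had a log2 change of 0.616 in the authors' deposited table. RS40 AT4G25500.3 had 72.8, 70.9 and 66.3% in upf against 20.5, 17.44 and 25.3%, yet did not pass diffSplice (adjusted p = 0.063), only the logit test (8.2e-06). RS31a AT2G46610.2 likewise had 60.8, 56.9 and 53.0% against 29.0, 27.1 and 23.7% (adjusted p = 0.29, logit 0.019).

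In the related zinc-knuckle group, RS2Z32 AT3G53500.1 had 40.2, 42.4 and 46.3% in upf and 21.2, 20.7 and 19.1% in wild type (adjusted p = 0.0070). RS2Z33 AT2G37340.3 had 22.4, 25.9 and 22.0% against 8.82, 7.49 and 5.84% (adjusted p = 0.013, up to 0.081 with a library left out). SR34a differed from these, since its gaining form AT3G49430.7 keeps the full frame of 300 residues and carries an upstream reading frame. It went from 7.45, 5.32 and 7.21% to 44.8, 55.8 and 54.6% (adjusted p = 0.00027), and the locus was at 0.95. SR45a AT1G07350.2 had 70.0, 72.6 and 66.1% against 41.5, 36.5 and 37.4%, with a call that was lost without any 1 library (0.058 to 0.13). SR30, whose form with an early stop is a known target, held 56.0, 49.9 and 52.7% in that form in upf and 52.6, 50.6 and 57.1% in wild type, so the groups overlapped.

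**Figure D3:**
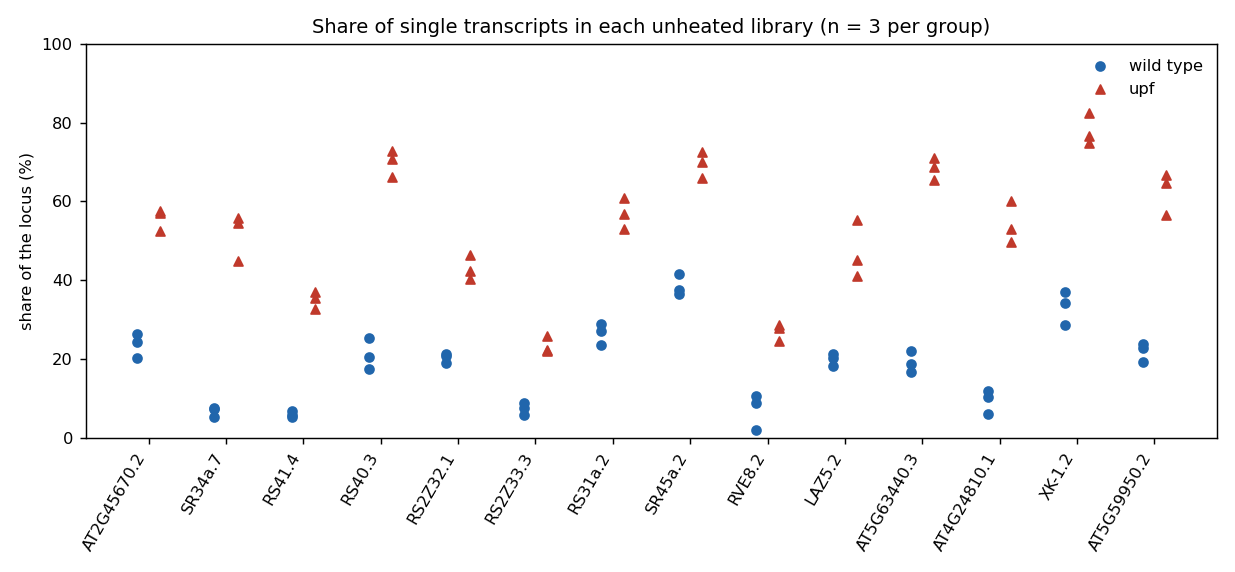
Share of single transcripts in their locus, in percent (y axis), in each of the 3 wild-type (circles) and 3 upf (triangles) unheated libraries for 14 transcripts. The 14 were picked from transcripts with a higher share in upf, so their common direction comes from that choice. In each of them the upf libraries lie above the wild-type libraries. RS40 AT4G25500.3 is at 66.3 to 72.8% against 17.44 to 25.3%, though RS40 and RS31a did not pass diffSplice.

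Genes of salicylic acid signalling, the hormone pathway of defence against pathogens that feed on living tissue, formed the list with the most calls. Of 29 tested, 16 rose and 0 fell, all 29 were above 0 and the median log2 change was 1.40. PR1, the standard marker of the pathway, had 4432, 1228.5 and 1008 normalized counts in upf and 1, 4 and 2.5 in wild type. The log2 change was 9.08 (SE 1.00, adjusted p = 3.0e-08) and 8.41 without upf replicate 1. The authors' deposited table gives 9.93 for the PR1 transcript. SARD1, a transcription factor that activates salicylic acid synthesis, had 148, 38 and 33 in upf and 2.5, 4.5 and 5.5 in wild type, a change of 3.54 (SE 0.42), or 2.86 without upf replicate 1. WRKY70 had 255.5, 131.5 and 265.5 against 36, 30.5 and 17.5, a change of 2.90 (SE 0.25, adjusted p = 3.5e-10).

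The risen members held regulators and markers alike. PAD4, a lipase-like immune regulator, rose by 1.27, FMO1 and PBS3 by 2.78 and 2.32, and the WRKY factors WRKY38, WRKY62, WRKY54 and WRKY46 by 3.65, 2.58, 1.78 and 1.68. EDS1, the partner of PAD4, was at 0.01 and EDS16, the isochorismate synthase of the pathway, at 0.38, and neither passed the test. BGL2 and PR5, markers used beside PR1, did not pass it either, at 1.69 and 0.10. Replicate 1 of upf was the highest mutant library in 13 of the 16 risen genes. Of 27 immune receptor genes of the NLR class, 1 rose, AT1G17600 (log2 change 1.25, SE 0.27, adjusted p = 0.00079), and the list median was 0.09. That locus overlaps AT1G17610 on the opposite strand over 3193 bases.

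Iron deficiency genes split by role. Of 18 tested, 10 rose and 2 fell, with a median of 1.46. The regulators of the bHLH subgroup that responds to iron shortage were among the strongest: BHLH100 had 916, 596.5 and 702.5 normalized counts in upf and 28.5, 49.5 and 0 in wild type. Its log2 change was 5.99 (SE 0.89, adjusted p = 5.2e-06), 4.24 without wild-type replicate 3, 6.68 without replicate 1 and 7.07 without replicate 2. bHLH38 had 1037, 505.5 and 711 against 24.5, 44 and 2.5, a change of 5.50 (4.41 without wild-type replicate 3, 6.25 without replicate 2). The neighbouring paralog bHLH39 rose by 4.93 (3.84 and 5.54 without the same libraries) and BHLH101 by 4.13. AT1G47400, annotated as an uncharacterized protein and placed in the list as iron-responsive, rose by 4.70 (3.83 and 5.49).

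The other risen members were the regulators PYE (1.45) and BTS (1.42), the phloem transporter OPT3 (1.68), the nicotianamine synthase NAS4 (1.75) and AT2G30766 (4.37), annotated as uncharacterized. Ferritins store iron, and they moved the other way. FER4 had 110, 145 and 145 in upf and 297.5, 521 and 452.5 in wild type, a change of -1.63 (SE 0.27, adjusted p = 2.4e-05), and FER1 fell by 1.25. The root uptake genes did not pass the test: IRT1 was at 1.46, FRO2 at -0.37 and their regulator FRU at 0.12. Replicate 1 of upf was the highest mutant library and replicate 3 of wild type the lowest wild-type library in all 10 risen genes.

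Of 13 genes of the phosphate starvation response tested, 7 fell, 0 rose and 6 did not pass the test, and the median log2 change was -1.58. MGDC, which makes galactolipids that take the place of phospholipids, had 19.5, 15 and 5 normalized counts in upf and 48.5, 307 and 309 in wild type, a change of -3.74 (SE 0.57, adjusted p = 8.6e-06). SPX3, a member of the phosphate-sensing SPX family, had 4.5, 3.5 and 9 against 30.5, 92.5 and 151, a change of -3.61. PS2, a pyrophosphatase, had 43, 37.5 and 28.5 against 137.5, 560.5 and 580, a change of -3.27. Wild-type replicate 1 was the lowest wild-type library in all 7 fallen genes, yet lay above every upf library in these 3. Without it the changes were -4.62, -4.25 and -3.96 and 10 members fell.

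The fallen members also held SPX1 (-1.66), MGD2 (-1.93), the sulfolipid enzyme SQD2 (-1.63) and PHO1;H1 (-1.58). PHO2, a ubiquitin-conjugating enzyme that limits phosphate uptake and falls in starved plants, was the 1 member above 0, at 0.91, and did not pass the test. IPS1, a noncoding RNA of phosphate starvation outside the list, had 8.5, 5 and 15 in upf and 15.5, 469 and 227.5 in wild type. Its log2 change was -3.64 (SE 0.77, adjusted p = 0.00068), -5.08 without wild-type replicate 1 and -2.66 without replicate 2. PEPC1, a phosphatase locus, fell by 3.12 (-3.79 without wild-type replicate 1).

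**Figure D4:**
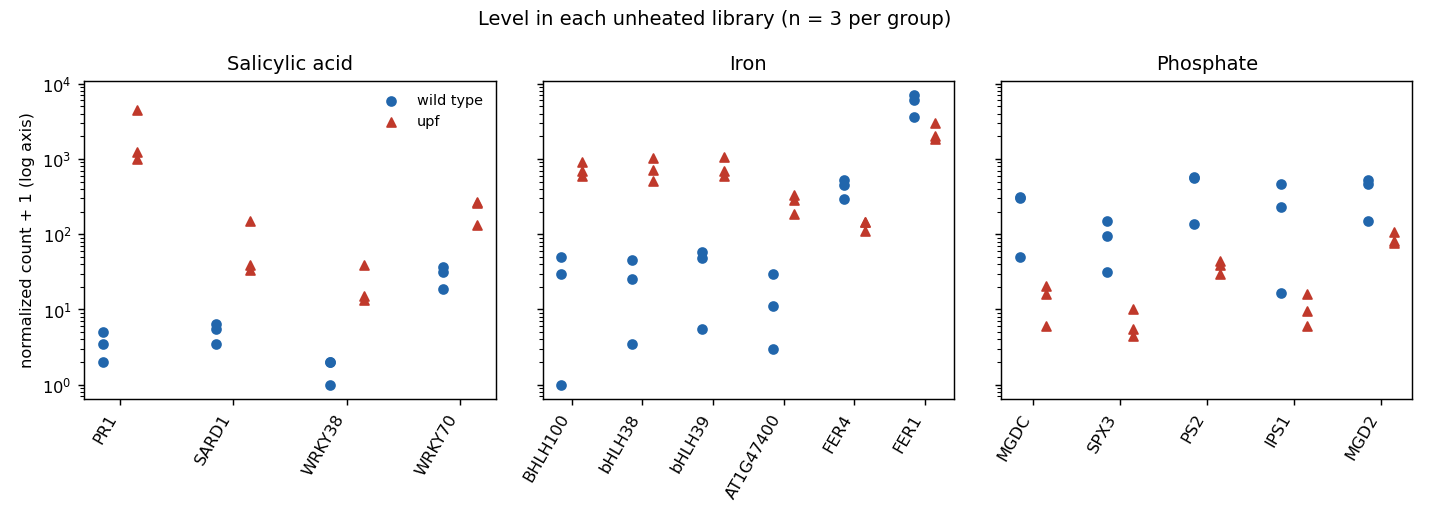
Normalized count plus 1 on a log axis (y axis) in each of the 3 wild-type (circles) and 3 upf (triangles) unheated libraries for genes of salicylic acid signalling, iron and phosphate. PR1 lies above 1000 in each upf library and at 1 to 4 counts in wild type, and wild-type replicate 1 is the lowest wild-type point for MGDC, SPX3, PS2 and IPS1.

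Of 13 flavonoid genes, 6 rose, 0 fell and 7 did not pass the test, with a median of 1.09. The anthocyanin enzymes DFR (49.5, 88 and 59.5 in upf against 15.5, 20.5 and 8 in wild type), LDOX and UF3GT rose by 2.14, 2.104 and 2.40, and their activator PAP1 by 1.52. GSTF12, the transferase for anthocyanin transport, rose by 1.76 but lost the call without wild-type replicate 3 (1.505, adjusted p = 0.078). Wild-type replicate 3 was the lowest wild-type library in 5 of the 6. Of 16 jasmonate and wounding genes, 3 fell and 0 rose, with a median of -0.57: the storage protein VSP1 by 1.21 and the repressors JAZ5 and JAZ6 by 1.23 and 1.01. The other 13 did not pass the test. With a pseudocount of 10, JAZ5 (-0.92) and JAZ6 (-0.99) lost the call, and JAZ6 did so with equal totals (-0.93). JAZ6 also lost it without wild-type replicate 2 (-0.92), wild-type replicate 3 (-0.82) or upf replicate 1 (-0.86).

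Heat shock genes were of interest because the study goes on to heat these plants. Of 23 heat shock factors, 2 rose and 0 fell, and of 25 chaperones, 3 rose and 0 fell. Of all loci tested, 5.99% rose, and most members of both lists did not pass the test. The list medians were 0.19 each. HSFA2, the factor that sustains the heat response, had 510, 550 and 835.5 normalized counts in unheated upf and 84, 135.5 and 116 in wild type, a log2 change of 2.48 (SE 0.16, adjusted p = 1.2e-12). HSFA1E, a factor of the class that starts the response, had 246.5, 220 and 215.5 against 48, 47.5 and 47, a change of 2.23 (SE 0.15, adjusted p = 1.3e-12). In both the groups were far apart relative to their spread. Hsp70b, a cytosolic chaperone, rose by 1.60 (SE 0.22). HSP101 rose by 1.06 and HSP21 by 1.37, but HSP101 lost the call without wild-type replicate 1 (0.90) or upf replicate 3 (0.87), and HSP21, at 0 to 10 counts, with a pseudocount of 10 (0.38) and without wild-type replicate 2 (0.84) or upf replicate 3 (0.85). Replicate 3 of upf was the highest mutant library in the 3 risen chaperones.

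The rise of HSFA2 came with a shift of its forms. AT2G26150.3, with the early stop after 107 codons shown above, had 64.7, 61.1 and 44.1% in upf and 19.6, 31.7 and 35.8% in wild type (adjusted p = 9.4e-05, logit 0.0076). AT2G26150.2 had 32.6, 32.4 and 38.6% against 17.9, 16.6 and 19.8% (adjusted p = 0.00017, logit 0.15). Both forms of the full protein of 345 residues lost share: AT2G26150.4 held 1.37, 3.55 and 7.72% against 35.7, 34.3 and 29.7%, and AT2G26150.1 held 1.27, 3.00 and 9.58% against 26.8, 17.3 and 14.7%. The level of AT2G26150.4 itself changed by -0.28 and that of AT2G26150.3 by 3.32, on the log2 scale. In the fit of the 6 unheated libraries alone AT2G26150.3, AT2G26150.2 and AT2G26150.1 had no call (adjusted p = 0.061, 0.072 and 0.15). The call of AT2G26150.1 was also lost without some libraries (adjusted p up to 0.072).

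Seed and flowering genes were measured as markers of other stages. Of 10 seed maturation genes, 4 rose and 0 fell, and the median was 2.73. M17, a late embryogenesis protein, had 1727.5, 1836.5 and 1988.5 normalized counts in upf and 222.5, 142.5 and 245.5 in wild type, a change of 3.21 (SE 0.68). The summed level of the list overlapped between groups, at 8011.5 to 12218 in upf and 437.5 to 8789.5 in wild type. The oleosin OLEO1 lost its call without wild-type replicate 1 (2.54, adjusted p = 0.093), and OLEO2 (adjusted p = 0.049) without any 1 of 5 libraries (adjusted p up to 0.27). SESA2, a storage albumin, rose by 3.61 (2.94 without wild-type replicate 1). Of 7 floral and late leaf markers tested, 1 rose and 0 fell, with a median of 0.90 and a lowest change of -0.805. The 1 that rose was FLC, the repressor of flowering, with 481, 386.5 and 473 in upf and 57, 57.5 and 84 in wild type. Its change was 2.75 (SE 0.36, adjusted p = 5.1e-07), with every mutant library far above wild type.

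Single members of other lists stood out from their relatives. AT5G18065, annotated as a target of trans-acting small RNAs, had 263, 280.5 and 376.5 in upf against 48.5, 58.5 and 43.5, a change of 2.58 (SE 0.14, adjusted p = 5.7e-15). It rose with MRD1 and HEI10, which overlap each other, as 3 of 12 members of a list of such targets and their neighbours. The list median was -0.02. Of 13 clock genes, 1 rose, the MYB-like factor RVE2 (531, 529.5 and 461 against 115.5, 111 and 73.5; change 2.36, SE 0.23), and CCA1, LHY and TOC1 were at -0.04, 0.76 and 0.33. SHY2, an auxin repressor, rose by 1.21 as 1 of 19 auxin and growth genes, whose median was -0.34. None of 20 ribosomal protein genes and 9 reference genes passed the test in either direction, with medians of -0.02 for both lists, and their changes lay between -0.30 and 0.44.

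Outside the lists, the largest rises with separate groups and a mean of at least 50 were led by AT3G60950, annotated as a C2 calcium and lipid-binding protein. It had 210.5, 173 and 257.5 normalized counts in upf and 0, 0.5 and 0 in wild type. AT5G26970, uncharacterized, had 289.5, 445 and 512 against 11, 9.5 and 14, a change of 5.03 (SE 0.76). Other rises rested more on 1 library. AT3G28510, an ATPase-like protein, had 441.5, 83.5 and 17 against 0, 0.5 and 0, a change of 6.26 (5.09 without upf replicate 1, 7.40 without upf replicate 3). ARD3, an acireductone dioxygenase, had 512, 98 and 43 against 2.5, 4.5 and 4.5, a change of 4.79 (3.80 and 5.57 without the same libraries). AT3G22235, a cysteine-rich stress protein, lost its call without upf replicate 1 (4.26, adjusted p = 0.053). LURP1, a defence gene, had 442, 133.5 and 143.5 against 2.5, 6.5 and 1.5. In each of these 4 genes upf replicate 1 was the highest mutant library.

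A defensin-like gene, AT1G13607, rose by 5.11 (4.46 without wild-type replicate 3, 5.75 without replicate 2). AT1G13470 rose by 4.82, and AT1G47395, which lies beside AT1G47400, by 4.67 (4.00 without wild-type replicate 3). Of the called loci, 4 were listed at 0 in all 3 wild-type libraries, and no fold is given for them. AT3G61030, also a calcium-dependent lipid-binding protein, had 49.5, 40 and 48 in upf. AT4G08867, AT1G64795 and AT3G33528, all uncharacterized, had 4 to 21 in each mutant library. The kinship by name of AT3G60950 and AT3G61030 was noticed after their values were seen.

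Among the largest falls were AT1G08310, a hydrolase-like protein (33, 19.5 and 29.5 in upf against 101.5, 196.5 and 439, change -2.90), and AT1G14250, a nucleoside phosphatase (31.5, 41.5 and 32 against 204, 255.5 and 354.5, change -2.89). MLP328, a latex-like protein, had 333, 368.5 and 232 against 2632.5, 1286 and 2369.5, a change of -2.71 (SE 0.36). AT3G16670, annotated as a pollen allergen and extensin family member, fell by 2.83. AT1G23110 fell by 3.09 (-3.78 without wild-type replicate 1). In all 5 genes each upf library was below each wild-type library, which the rule that picked them required.

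The heated libraries, none of which entered the unheated contrast itself, showed how far these differences were found again. Of the 1243 risen loci, 849, 904, 870 and 868 were also higher in upf at 15, 30, 45 and 90 min, which is 68.3, 72.7, 70.0 and 69.8% of them, against a background of 6.29, 8.18, 8.41 and 8.82% of all loci. They were called at all 4 times in 684 cases (55.0%) and at none in 180 (14.5%). Of the 307 fallen loci, 142, 97, 113 and 126 were lower again, against a background of 1.37, 1.61, 1.97 and 1.99%, with 42 at all 4 times and 101 at none. The same model tested the difference between the unheated effect and the mean heated effect. The unheated effect was above the heated one at 83 loci (0.400%) and below it at 208 (1.00%), of which 58 and 74 were among the risen loci. The risen loci were chosen by the same unheated values that enter this difference, which favours a greater unheated effect among them.

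PR1 was higher in upf by 8.06, 7.19, 7.51 and 2.84 on the log2 scale at 15, 30, 45 and 90 min, BHLH100 by 5.97, 4.74, 6.04 and 6.73, and FLC by 2.82, 2.48, 2.75 and 2.34. HSFA2 behaved otherwise. Its difference was 0.08, -0.11, -0.08 and -0.18 under heat, and the unheated effect exceeded the heated mean by 2.55 (adjusted p = 1.9e-11). Hsp70b and HSP101 also exceeded it, by 1.60 and 1.27 (adjusted p = 7.9e-05 and 0.0010), as did AT5G18065, by 2.35. SAC51 went the other way, with 2.49, 2.88, 3.57 and 3.71 under heat and an unheated effect lower by 1.54 (adjusted p = 1.4e-05). Shares followed suit: of 177 transcripts that gained share unheated, 107, 110, 101 and 102 gained it again at the 4 times, against backgrounds of 1.34, 2.63, 2.25 and 2.40% of all transcripts tested. All 12 of the largest gains were higher in share in upf at every time.

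CHX blocks translation, which NMD needs, and its libraries share none with the unheated groups. They were compared with heated wild type without CHX, as the mean over 4 times, so the drug effect is measured in heat. Of the 1243 risen loci, 266 (21.4%) were also higher with CHX, against 9.35% of all loci, and 17 were lower. Scaling libraries to equal totals gave 32.7% and a pseudocount of 10 gave 12.3%. The share of all loci under those settings is not given here, so neither value can be set against 9.35%. Of the 16 known targets, 3 were called higher with CHX and 0 lower: ERF1-1, TFIIIA and SAC51, by 1.27, 1.79 and 1.35. Other known targets were not called, among them AT1G36730 (0.13), SCL33 (-0.67) and SR30 (-0.98). Of the 27 genes with a conserved upstream frame, 8 were called higher and 0 lower, among them XPL1 (1.02) and EMB1444 (1.33). PR1, MRD1 and FLC had changes of -0.35, 0.27 and -0.46 and were not called. Other lists also held calls with CHX. Higher were 10 of 29 salicylic acid genes, 6 of 18 iron genes and 12 of 19 auxin and growth genes. In each of these lists 0 were lower, while of 25 chaperones 8 were lower and 0 higher. SARD1, WRKY70 and bHLH38 were called higher, by 2.44, 2.40 and 1.66. Of the 307 fallen loci, 4 were lower with CHX, against 1.38% of all loci, and 40 were higher. Of the 177 transcripts that gained share, 70 (39.5%) gained it with CHX, against 4.37% of all transcripts, and all 12 of the largest gains were higher in share, by 5.14 to 35.7 percentage points.

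**Figure D5:**
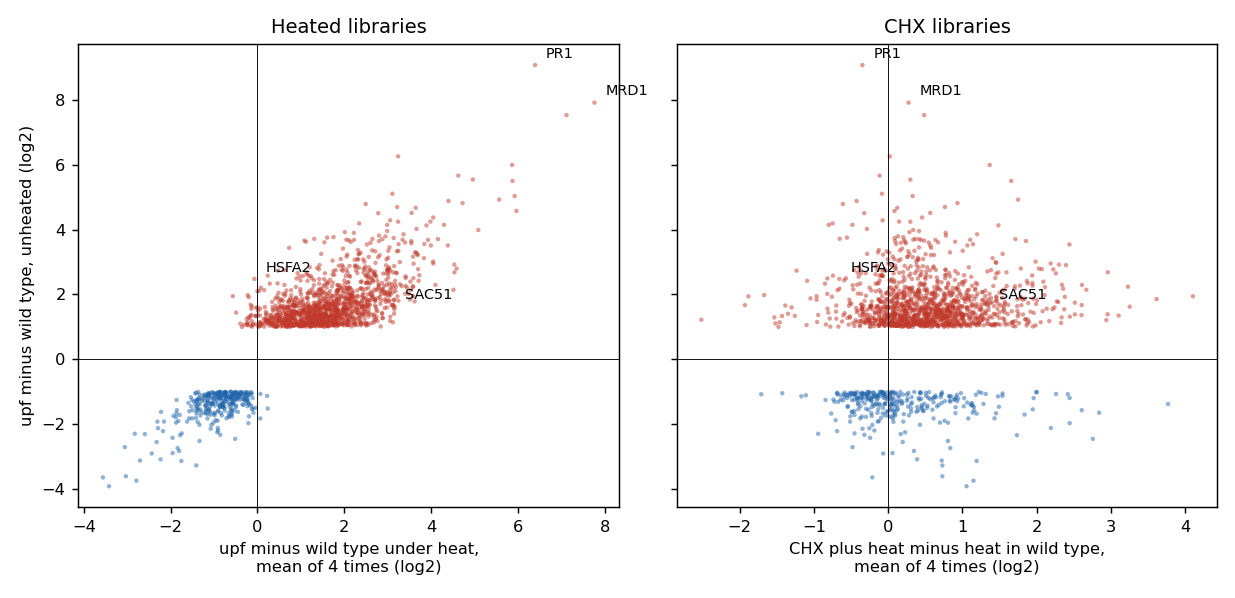
Log2 change in unheated upf (y axis) of the 1550 loci called there, against the mean log2 change of upf over the 4 heated times (left, x axis) and of CHX over the 4 heated times in wild type (right, x axis). Red points rose and blue points fell in unheated upf; HSFA2 lies near 0 on the left x axis, at -0.07, and PR1 near 0 on the right, at -0.35.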

How the data were processed

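The series holds stranded mRNA libraries of whole seedlings, sequenced with a 150-cycle paired-end kit per the labels' protocols. The submitters' processing notes name kallisto, sleuth and the TAIR10 annotation. The deposited table gives the authors' normalized counts per transcript for 2 lanes per library, as whole numbers that were not raw reads, so they were treated as a score and no count model was used. The scaling and any use of strand in counting were not given in the sources used here, and sequencing depth is unknown. The authors' deposited table of log2 fold changes and adjusted p-values was used to check signs. It covered 1113 transcripts at 50 or more in both groups with a change over 1 in size, and all had the same sign. That table comes from the same libraries, so this checks the direction of the comparison and is no independent support for the calls.

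Lanes were averaged and transcripts summed to loci. R 4.3.3 and limma 3.58.1 fitted log2(value + 1) with 1 mean for each of the 14 groups, after a filter of 10 in at least 3 libraries, with Benjamini-Hochberg adjustment over all loci or transcripts tested. Fold changes on this scale understate those of low genes. All 42 libraries entered the fit. diffSplice tested the log2 change of each transcript against the others of its locus, and limma on the logit of the share was the alternative. Both were also run on simulated data in which transcripts varied independently. The outcome is not given here, and that run does not bear on the dependence on single libraries. Of the listed transcripts, 99.6% matched the RefSeq TAIR10.1 annotation, from which gene names, coordinates (1-based) and sequences come. The members and gene lists were chosen with earlier results of these data known. Named genes were all known targets, up to 4 members per other list and direction with the largest calls, the 15 largest rises and 10 largest falls with separate groups and a mean of at least 50, loci listed at 0, and the 12 largest gains and 8 largest losses of share in loci with a mean of at least 100; further list members were given as values, chosen for their roles. Close paralogs can share reads, and 16 of the 80 named loci overlap another tested locus, 15 of them on the opposite strand. Alternatives were other pseudocounts, filters, scalings, lanes, libraries in the fit, replicate blocks and leaving out each library. One locus counted in the gene lists is not reported here.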

Additional observations from a re-analysis of the deposited data

Results flagged for a closer look

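At 14 named loci the upf effect in unheated seedlings differed from its mean over the 4 heated times by a test of the difference itself in the limma fit (adjusted p below 0.05 and at least 2-fold). The unheated effect was the greater one, on the log2 scale, for HSFA2 by 2.55, AT5G18065 by 2.35, AT1G13607 by 2.00, Hsp70b by 1.60, HSP21 by 1.51, WRKY70 by 1.47, HSFA1E by 1.35, HSP101 by 1.27 and SR45a by 1.13. Of these 9, HSFA2, Hsp70b, HSP21, HSP101 and SR45a had no call in upf at any heated time. All 9 were called by unheated values that also enter the difference, which favours a greater unheated effect. How much of the difference comes from that choice was not tested. The unheated calls of HSP21, HSP101 and SR45a were each lost when some single libraries were left out, and HSP21 stood at 0 to 10 counts.

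The unheated effect was lower for the rise of SAC51 (-1.54), SHY2 (-1.48), EMB1444 (-1.24) and ERF1-1 (-1.06), each of which rose in upf both unheated and at every heated time. For PS2, which was lower in upf throughout, the difference was -1.86, so its fall was greater in unheated seedlings.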

How the results depend on the processing

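Over all alternatives, 893 to 1486 loci rose, and leaving out 1 library gave 1064 to 1218. Leaving out 1 library gave 231 to 385 fallen loci. No called value changed direction. Of the values not called, GRP7 (-0.16) and CCR1 (-0.09) were at 0.115 and 0.233 without wild-type replicate 3. Of 2092 named values compared, 1921 stayed on their side of the threshold, 170 lost the call and 1 gained it (SR34a, 1.04 with equal totals). Of the named values, 21 of 121 lost the call in lane 1 alone and 18 of 122 in lane 2. Over the alternatives 12 to 17 salicylic acid genes and 10 to 11 iron genes rose, and 7 to 10 phosphate genes fell. With a pseudocount of 10, 168 loci fell and 169 loci differed between unheated and heated effects (291 otherwise). The share of risen loci also higher with CHX was 12.31% with that pseudocount and 32.71% with equal totals. The matching share of all loci is not given here for either setting. Equal totals moved the median log2 change of all loci from -0.03 to 0.06, and median-of-ratios scaling to -0.06.

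Transcript share depended more on the setting. Gains and losses numbered 412 and 306 with the 6 unheated libraries alone, 399 and 260 with a pseudocount of 10, 106 and 75 in lane 1, 103 and 84 in lane 2, 107 and 76 at 20 percentage points, and 120 and 87 by both tests, a rule chosen after seeing the data. Leaving out 1 library gave 98 to 161 gains and 66 to 115 losses. The cause was not tested. The replicate block gave 1254 and 316 loci and 187 and 133 transcripts, and the block in the 6 libraries alone, added after seeing the data, gave 302 and 208 transcripts. Same-numbered libraries had correlated deviations of 0.09, -0.03 and 0.08, so the numbers were not taken to pair the libraries. With 3 libraries per group and values near 0 in wild type, the size of the greatest changes is the least certain.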
